A study of Mus musculus with 16 samples.

Results

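The genes described here are p53 itself and the established targets through which it acts on arrest, apoptosis, metabolism and its own feedback. They were taken by symbol from a fixed list, and all 31 names on it were found among the 24421 genes of the count table. The RNA came from skin of female SKH-1 mice, which are hairless and serve in work on skin cancer by sunlight. Exposed mice had a dose of 60 mJ/cm2 ultraviolet B (UVB), given 2 times a week, and control mice had no agent. Epidermis was taken from control and from UVB mice at weeks 2, 15 and 25, and at week 25 whole skin was taken from control mice and tumors from UVB mice. Each of these 8 groups has 2 libraries, numbered 0 and 1 in the labels, and all share strain and sex. Neither the ages of the mice nor whether both libraries of a group stem from different animals is in the labels. The p-values therefore reflect no more than the spread between these libraries, and that spread may be technical. Whole skin holds dermis, muscle and fat, whose markers were lower in separated epidermis but not absent. The tumors have no label on their type or stage.

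The transcription factor p53, encoded by Trp53, is held at a low level by the ubiquitin ligase Mdm2 and is stabilised when DNA is damaged. It then binds pairs of a short motif near its targets and raises their transcription. Some targets stop the cell cycle, some open the route to apoptosis, and some, Mdm2 among them, turn p53 off again. In epidermis this response follows UVB within hours and removes or halts damaged keratinocytes. UVB-induced skin cancers often carry Trp53 mutations, which RNA levels do not report.

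The promoter windows of 3 members that differed in their course, Ccng1, Zfp365 and Eda2r, and of Cdkn1a, the best known target, are shown to place the p53 motif beside the expression values. Each runs from 250 bases before to 50 bases after a RefSeq start site (GRCm38.p6, the assembly of mm10). Its bases are written 5′ to 3′ on the strand of the gene. The motif pair with the fewest mismatches is in capitals, the first where pairs are equal. The windows are chr11:40755237-40755536 on the minus strand for Ccng1, chr17:29090729-29091028 on the plus strand for Cdkn1a (the upstream of its 2 windows), chr10:67912613-67912912 on the minus strand for Zfp365 and chrX:97377160-97377459 on the minus strand for Eda2r.
Ccng1: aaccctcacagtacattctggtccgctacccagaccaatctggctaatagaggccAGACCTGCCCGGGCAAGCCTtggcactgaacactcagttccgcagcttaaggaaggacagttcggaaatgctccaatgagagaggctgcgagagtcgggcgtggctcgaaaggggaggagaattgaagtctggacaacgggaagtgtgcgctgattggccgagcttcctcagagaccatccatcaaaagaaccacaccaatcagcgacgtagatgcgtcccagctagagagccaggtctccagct
Cdkn1a: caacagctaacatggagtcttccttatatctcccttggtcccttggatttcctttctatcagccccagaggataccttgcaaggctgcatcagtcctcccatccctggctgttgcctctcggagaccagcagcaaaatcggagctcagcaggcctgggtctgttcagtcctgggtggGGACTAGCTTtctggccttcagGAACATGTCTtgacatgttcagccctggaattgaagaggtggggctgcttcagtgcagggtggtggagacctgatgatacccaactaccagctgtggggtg
Zfp365: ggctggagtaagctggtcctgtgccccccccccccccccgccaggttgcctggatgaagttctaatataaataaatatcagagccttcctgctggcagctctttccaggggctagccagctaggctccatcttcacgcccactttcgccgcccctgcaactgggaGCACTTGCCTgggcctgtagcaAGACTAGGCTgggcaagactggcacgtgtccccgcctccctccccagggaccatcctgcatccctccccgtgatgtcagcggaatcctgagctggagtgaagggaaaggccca
Eda2r: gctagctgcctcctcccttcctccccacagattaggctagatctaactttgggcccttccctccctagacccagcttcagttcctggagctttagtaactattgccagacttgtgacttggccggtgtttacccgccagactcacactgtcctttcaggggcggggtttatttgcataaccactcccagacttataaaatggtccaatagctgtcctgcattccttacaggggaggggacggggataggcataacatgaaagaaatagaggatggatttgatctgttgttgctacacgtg

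The motif searched was the p53 consensus decamer, which is its own reverse complement, so that both strands are read at once. A pair was accepted with a spacer of 0 to 13 bases and at most 2 mismatches over both decamers. The Ccng1 pair starts at position -195, has no spacer and holds 1 mismatch. The Cdkn1a pair starts at -73 with a spacer of 12 bases and 0 mismatches. Its second decamer also pairs, with no spacer and 1 mismatch, with the decamer that follows it, which is left in lower case. The other Cdkn1a window held no pair. The Zfp365 pair starts at -85 with a spacer of 12 bases and 2 mismatches. Its second decamer forms an equal pair, with no spacer and 2 mismatches, with the decamer that follows it, which is left in lower case. No pair was found in the Eda2r window, where no letters are in capitals. RefSeq windows were matched for 23 of the 31 members, and 7 of the 23 (30.4%) held a pair, against 1272 of 27025 genes (4.71%). The other 4 were Bax, Gadd45a, Sesn1 and Trp73. An exact decamer stood in 39.1% of the 23 and in 9.55% of all genes. A match is a string of letters and says nothing of binding in these mice.

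The depth ranged from 2905165 deposited counts (week 2 control 1) to 7959503 (whole skin control 0). Duplicate reads had been removed before counting, and the highest count per exon base was close to the same in every library, at 1.83 to 2.11. Perp stood near that ceiling, at 1.27 to 1.63 counts per base, and Cdkn1a reached 1.1, Ccng1 0.952 and Plk3 0.805, so CPM and folds of these 4 genes can be off in either direction where depths differ: near the ceiling a fold is understated, and a shallow library reads too high. Between the libraries of a group, the chi-square per degree of freedom was highest in whole skin controls (48.9) and week 2 controls (21.2) and lowest in tumors (4.82). Basal keratinocyte markers summed to 914 CPM (counts scaled to library size) or more in each library, and muscle markers to at most 46.3 CPM in epidermis. Levels are CPM on the scale of all 16 libraries, and effects are log2 ratios ± standard error from edgeR's quasi-likelihood test. A gene was called at a Benjamini-Hochberg adjusted p under 0.05 over all genes tested. In bulk samples, fewer cells of a type and less RNA per cell cannot be told apart.

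**Figure D1:**
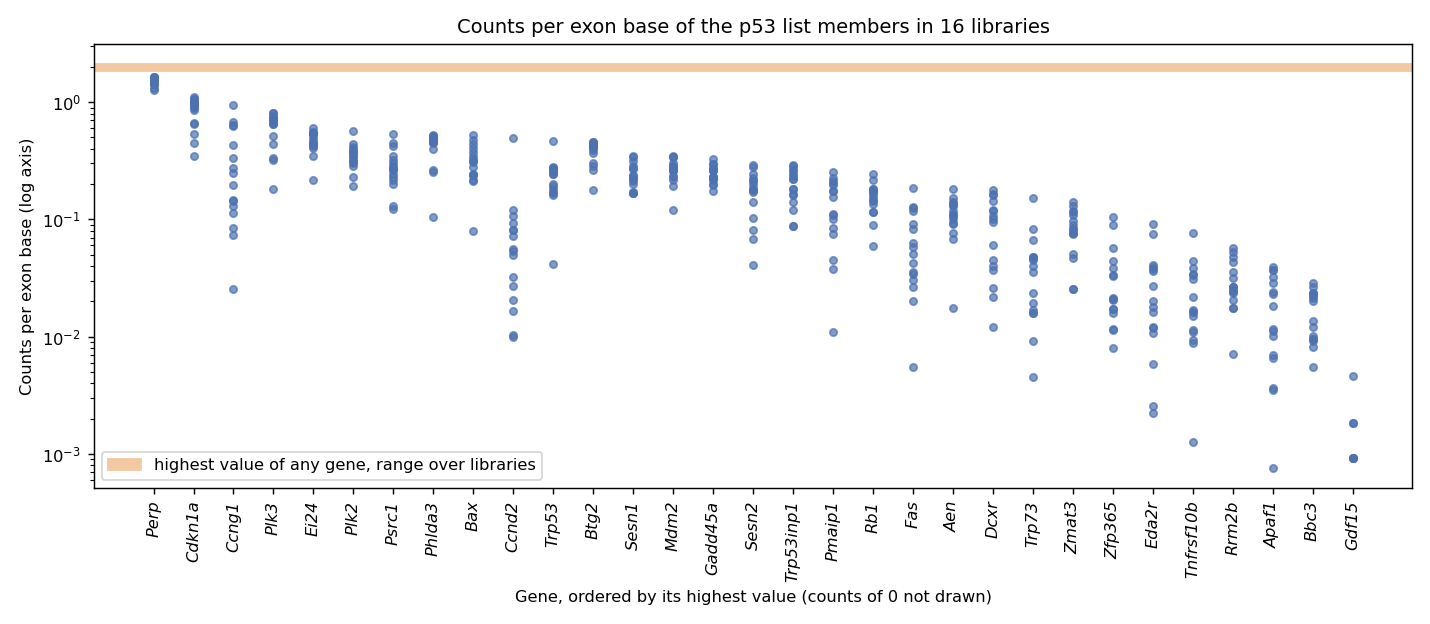
Counts per exon base (log axis) of each p53 list member, one point per library, ordered by the highest value of the member, with a band at the highest value of any gene (1.83 to 2.11 over libraries). Perp sits just below it, while Gdf15, the last gene, has at most 5 counts in a library.

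In epidermis the p53 targets called by edgeR's quasi-likelihood test rose at weeks 2 and 15 and moved in both directions at week 25. At week 2, 9 of the 30 members tested rose and 0 fell, where 8.09% of all genes were called up and 9.74% down. At week 15, 7 rose and 0 fell, where 1.85% of all genes were called up and 1.64% down (3.49% in all). At week 25, 4 rose and 4 fell, where 10.6% were called up and 10.9% down, so that the share of members called there was near that of all genes (21.5%). The median member stood at 0.21 at week 2, 0.21 at week 15 and -0.01 at week 25, and the median gene at -0.03, -0.01 and 0.01. DESeq2 also called Gadd45a and Sesn1 down at week 2 (9 up, 2 down) and Sesn1 down at week 15 (7 up, 1 down). Without the filter on low counts Gadd45a was called down at week 2 (10 up, 1 down) and Sesn1 at week 15 (7 up, 1 down). Of all genes, DESeq2 called 3016 at week 2 and 1006 at week 15, and the fit without the filter 2838 and 1146. Zfp365, Pmaip1 and Dcxr were called up at all 3 weeks. Gdf15, a secreted stress cytokine, was the member not tested, as the filter on low counts removed it. It had 0 to 2 counts in every epidermis library, under the floor of 3 counts set here, and up to 5 in a tumor library.

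These counts depended on single libraries. The share of all genes called also changed from fit to fit, so the counts do not show instability of the members alone. The week 2 count was 4 without control 1, 4 without UVB 1, 8 without UVB 0 and 16 (11 up, 5 down) without control 0, and Ccng1, Zfp365, Pmaip1 and Eda2r were called in all 4 of these fits. The week 15 count was 0 without control 0, 2 without UVB 1, 3 without UVB 0 and 9 (8 up, and Sesn1 down) without control 1. The week 25 count was lower in each fit without 1 week 25 library, and so was the share of all genes called. No call of a member at week 25 was kept in all of these fits.

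**Figure D2:**
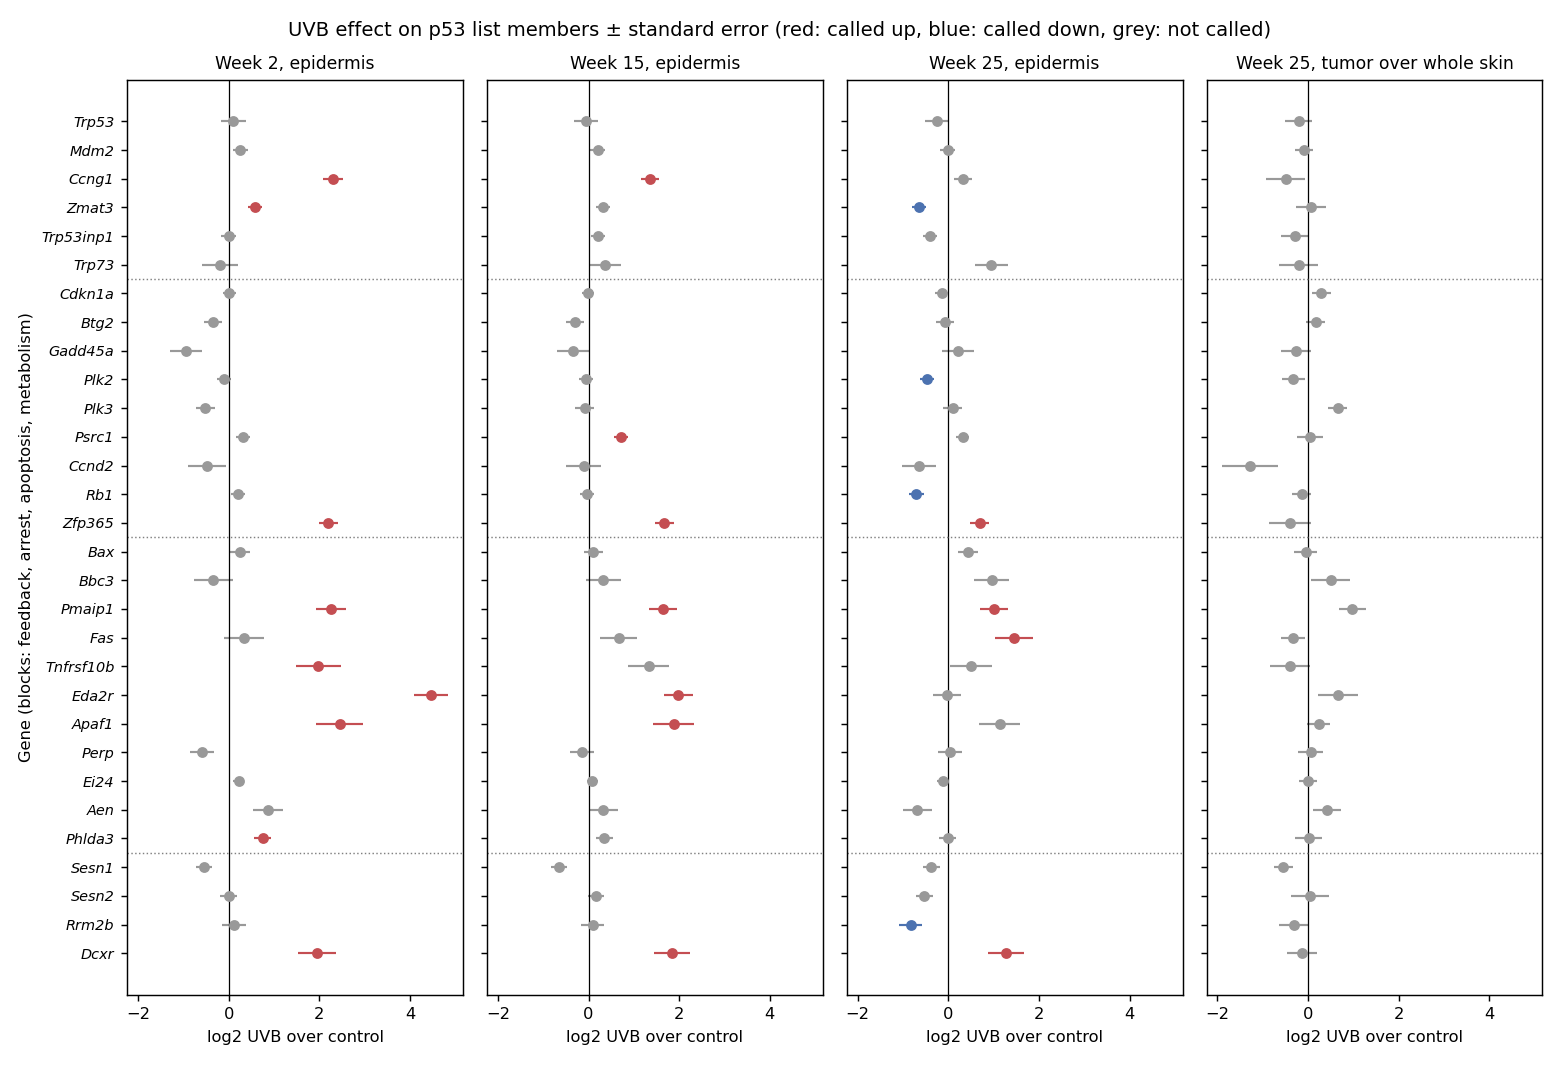
Log2 UVB over control (horizontal axis) with its standard error for the 30 members tested, in epidermis at weeks 2, 15 and 25 and for tumor over whole skin, in red where called up, blue where called down and grey where not called. Red points thin out from 9 at week 2 to 4 at week 25, and no point is coloured in the tumor panel.

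Trp53 (chromosome 11, 69580359 to 69591873, mm10) was called at no week, so its RNA level gave no detectable response to UVB. Controls 0 and 1 stood at 71.1 and 33.0 CPM at week 2, 71.6 and 83.7 at week 15, and 77.6 and 78.5 at week 25. The UVB libraries stood at 57.0 and 58.8, 80.8 and 71.0, and 77.2 and 56.6 CPM. UVB and control libraries overlapped at weeks 2 and 15, and the effects of 0.10 ± 0.27, -0.05 ± 0.27 and -0.25 ± 0.27 were not called. Mdm2, the ligase that degrades p53, stood at 127 and 157 CPM in week 2 controls and 164 and 182 in week 2 UVB epidermis. At week 15 it read 140 and 128 against 165 and 146, and at week 25 it read 144 and 136 against 125 and 158 CPM. Both UVB libraries lay above both controls at weeks 2 and 15, yet effects of 0.25 ± 0.16, 0.20 ± 0.16 and -0.02 ± 0.16 were not called.

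Ccng1 (chromosome 11, 40748552 to 40755286), which encodes cyclin G1, a partner of protein phosphatase 2A in the control of Mdm2, responded most among the feedback genes. Controls stood at 49.1 and 37.7 CPM at week 2 and UVB epidermis at 181 and 259 CPM. At week 15 the values were 58.6 and 63.7 against 182 and 134, and at week 25 they were 76.4 and 76.5 against 105 and 90.6. The UVB libraries stood above the controls each week, but the gap closed from both sides. The effect was 2.30 ± 0.22 at week 2 (adjusted p = 0.00129), 1.36 ± 0.20 at week 15 (adjusted p = 0.011) and 0.33 ± 0.20, not called, at week 25. Its fall of 1.97 ± 0.29 on the log2 scale between weeks 2 and 25 was called (adjusted p = 0.0095).

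Zmat3 (chromosome 3, 32334794 to 32365665), whose RNA-binding protein alters splicing and transcript stability, changed sign. At week 2 it stood at 113 and 83.8 CPM in controls and 142 and 160 under UVB, a rise of 0.58 ± 0.16 (adjusted p = 0.0315). At week 15 it stood at 127 and 112 against 160 and 140, and the effect of 0.32 ± 0.16 was not called. At week 25 controls were the higher, at 144 and 169 against 98.3 and 106 CPM, and the effect was -0.64 ± 0.16 (adjusted p = 0.0188). The change between weeks 2 and 25 was -1.23 ± 0.22 (adjusted p = 0.0149). The other feedback genes, Trp53inp1, which promotes the phosphorylation of p53, and the p53 relative Trp73, were called at no week, with effects from -0.40 to 0.95.

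Among members grouped under arrest and cell cycle the best known was called at no week. Cdkn1a (chromosome 17, 29090986 to 29100722) encodes p21, the inhibitor of cyclin-dependent kinases. It stood at 350 and 388 CPM in controls and 376 and 387 under UVB at week 2, at 342 and 307 against 335 and 316 at week 15, and at 340 and 330 against 293 and 323 at week 25. The groups overlapped at weeks 2 and 15, with effects of 0.02 ± 0.14, -0.01 ± 0.14 and -0.15 ± 0.14. Correcting the counts for read start positions already occupied gave 0.21 at week 2 (adjusted p = 0.308), 0.08 at week 15 and -0.17 at week 25, still not called.

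Zfp365 (chromosome 10, 67886105 to 67912662) is the mouse counterpart of ZNF365, a p53 target linked to genome stability. It had the largest rise among members grouped under arrest and cell cycle. At week 2 it stood at 17.3 and 14.4 CPM in controls and 72.4 and 77.8 under UVB, a rise of 2.20 ± 0.21 (adjusted p = 0.00129). At week 15 it stood at 9.87 and 10.9 against 38.0 and 29.2, a rise of 1.67 ± 0.21 (adjusted p = 0.00511). At week 25 it stood at 15.0 and 13.6 against 22.0 and 25.2, a rise of 0.69 ± 0.21 (adjusted p = 0.0377). UVB libraries were above controls each week by a shrinking margin, and the change of -1.51 ± 0.30 between weeks 2 and 25 was called (adjusted p = 0.0177).

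Psrc1, which encodes a microtubule-binding protein of the mitotic spindle, rose at week 15, from 80.7 and 81.4 to 148 and 122 CPM (0.72 ± 0.15, adjusted p = 0.0328). Its effects at weeks 2 and 25, 0.32 ± 0.15 and 0.31 ± 0.15, were not called. Rb1 (chromosome 14, 73195502 to 73325791), the retinoblastoma gene, stood at 135 and 116 CPM in controls and 157 and 140 under UVB at week 2, at 150 and 109 against 126 and 130 at week 15, and at 168 and 174 against 102 and 112 at week 25. It fell by 0.71 ± 0.16 at week 25 (adjusted p = 0.0137). Its change of -0.91 ± 0.23 between weeks 2 and 25 was also called (adjusted p = 0.0369). Plk2, a polo-like kinase gene, fell by 0.48 ± 0.15 at week 25 (adjusted p = 0.045), from 197 and 189 to 131 and 151 CPM.

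The other members grouped under arrest and cell cycle were called at no week. They are Btg2, an antiproliferative gene, Gadd45a, a growth arrest gene, Plk3, another polo-like kinase gene, and the cyclin gene Ccnd2, with effects from -0.95 to 0.21. Of the 238 Gadd45a exon bases that overlap the antisense gene E230016M11Rik (19.4% of its exons), reads cannot be assigned without the strand setting, which is not given in the sources used here.

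Apoptosis genes held the largest responses. Of 11 members, 5 rose at week 2, 3 at week 15 and 2 at week 25, and none of the 11 fell at any of these weeks, where 8.09%, 1.85% and 10.6% of all genes were called up. Eda2r (chromosome X, 97333841 to 97377209), which encodes a receptor of the tumor necrosis factor family, stood at 2.85 and 5.5 CPM in week 2 controls and at 81.9 and 92.5 CPM in week 2 UVB epidermis. At week 15 it stood at 6.71 and 9.98 against 32.8 and 34.3 CPM, and at week 25 at 11.6 and 16 against 10.8 and 16.8 CPM. The gap of week 2 was gone at week 25, where the groups overlapped. The effect was 4.46 ± 0.37 (adjusted p = 0.00129), then 1.98 ± 0.32 (adjusted p = 0.0143), then -0.04 ± 0.31. The change of -4.50 ± 0.48 between weeks 2 and 25 was called (adjusted p = 0.00495).

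Pmaip1 (chromosome 18, 66458604 to 66465558) encodes Noxa, a BH3-only protein that opposes the survival factor Mcl1. It stood at 22.8 and 12.3 CPM in controls and 86.7 and 90.6 under UVB at week 2, at 19.7 and 36.1 against 72.5 and 104 at week 15, and at 33.6 and 44.7 against 86.6 and 73.2 at week 25. The UVB level stayed within 72.5 to 104 CPM at all 3 weeks while the controls of week 25 lay above those of week 2 (1.11 ± 0.33, adjusted p = 0.0494). That call between controls was kept in 3 of 10 alternatives, with an adjusted p from 0.0134 to 0.256 over them. The effect was 2.26 ± 0.33 (adjusted p = 0.00417), 1.64 ± 0.31 (adjusted p = 0.0257) and 1.0 ± 0.31 (adjusted p = 0.0401), and its change of -1.25 ± 0.45 between weeks 2 and 25 was not called.

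Apaf1, which forms the apoptosome that activates caspase-9, stood at 4.37 and 2.12 CPM in controls and 12.4 and 26.4 under UVB at week 2, at 4.74 and 11.7 against 33.0 and 29.2 at week 15, and at 7.25 and 7.08 against 18.3 and 13.8 at week 25. UVB libraries were the higher each week. It rose by 2.45 ± 0.52 at week 2 (adjusted p = 0.0119) and 1.88 ± 0.45 at week 15 (adjusted p = 0.0482), and the effect of 1.13 ± 0.45 at week 25 was not called. Tnfrsf10b, the mouse TRAIL receptor gene, rose at week 2 from 5.33 and 1.69 to 9.78 and 21.2 CPM (1.98 ± 0.50, adjusted p = 0.0235), and its later effects of 1.33 ± 0.45 and 0.50 ± 0.47 were not called. Without week 2 UVB 1 or without week 2 control 1, neither Apaf1 nor Tnfrsf10b was called at week 2.

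Phlda3, an inhibitor of the kinase Akt, rose at week 2 from 74.0 and 64.8 to 109 and 130 CPM (0.75 ± 0.19, adjusted p = 0.0231). Its effects of 0.35 ± 0.18 and -0.01 ± 0.18 at weeks 15 and 25 were not called. Fas, the death receptor gene, had the opposite course. It stood at 12.2 and 4.23 CPM in controls and 9.03 and 13.4 under UVB at week 2, at 12.2 and 14.6 against 25.6 and 17.5 at week 15, and at 9.28 and 5.54 against 22.6 and 18.8 at week 25. It rose at week 25 (1.45 ± 0.42, adjusted p = 0.034), and the difference from week 2, 1.12 ± 0.61, was not called.

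The other 5 apoptosis genes were called at no week. Bax and Bbc3 (Puma), the pore-forming protein and the BH3-only protein most often used as readouts of p53, had effects of 0.24 ± 0.22 and -0.35 ± 0.43 at week 2 and 0.43 ± 0.22 and 0.96 ± 0.39 at week 25. Perp, a desmosome protein of epithelia, stood at 553 and 1067 CPM in week 2 controls and from 473 to 575 CPM in the other 10 epidermis libraries. Its effect of -0.58 ± 0.26 at week 2 is the one in which the shallow control 1 stands apart, and with counts corrected for occupied positions it was -0.36. Ei24 and Aen had effects from -0.69 to 0.86.

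Of the metabolic members, Dcxr (chromosome 11, 120725373 to 120727281), an enzyme of carbonyl and xylulose reduction, rose at every week. It stood at 6.47 and 4.66 CPM in controls and 16.4 and 28.6 under UVB at week 2, at 3.95 and 6.60 against 23.3 and 15.4 at week 15, and at 4.05 and 5.70 against 14.0 and 10 at week 25. The groups did not overlap at any week. The effect was 1.95 ± 0.42 (adjusted p = 0.0126), 1.84 ± 0.40 (adjusted p = 0.0372) and 1.27 ± 0.40 (adjusted p = 0.046), and its change of -0.68 ± 0.58 between weeks 2 and 25 was not called. Rrm2b, the p53-induced subunit of ribonucleotide reductase, fell by 0.83 ± 0.25 at week 25 (adjusted p = 0.0408), from 27.3 and 22.2 to 14.0 and 14.3 CPM. Sesn1 and Sesn2, sestrins that restrain mTORC1, were called at no week. Sesn1 had effects of -0.55 ± 0.18, -0.66 ± 0.18 and -0.37 ± 0.18.

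**Figure D3:**
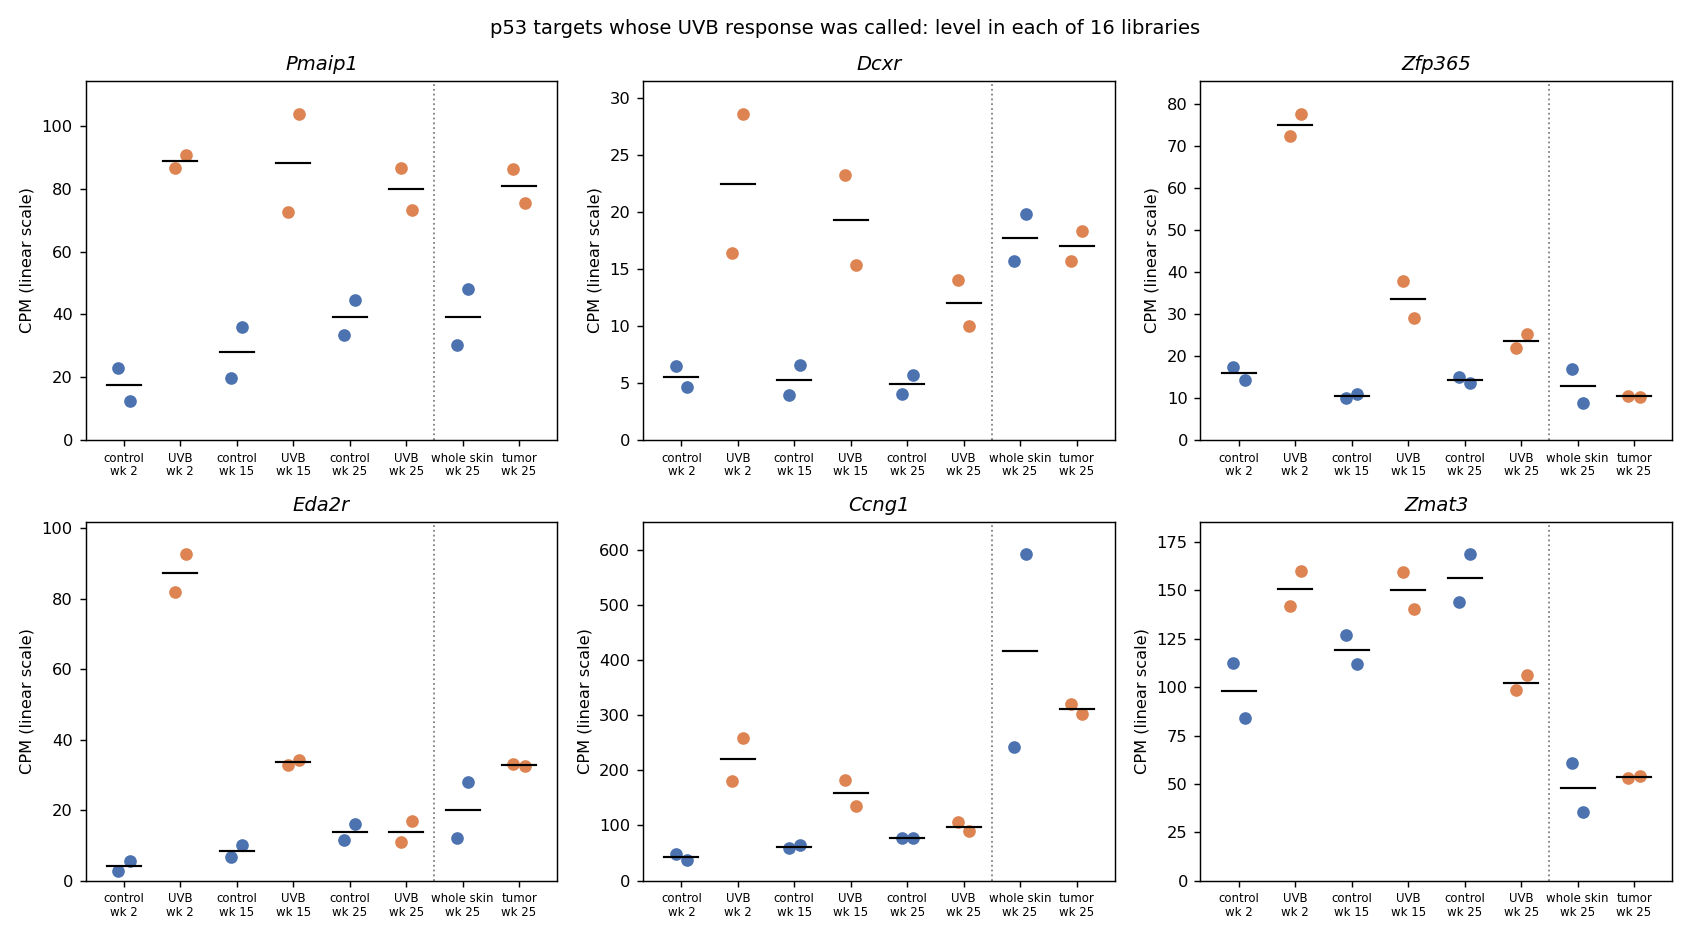
CPM (linear axis) of 6 members whose UVB response was called, one point per library, blue for control and orange for UVB, with a bar at the mean of the 2 libraries. Eda2r loses its UVB gap by week 25 in epidermis, Ccng1, Zfp365, Pmaip1 and Dcxr keep a smaller one, and in Zmat3 the order turns over.

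The difference of the UVB effect between weeks 2 and 25 was called for 5 members, Eda2r, Ccng1, Zfp365, Zmat3 and Rb1, each lower at week 25. Of all genes, 4.59% were called lower and 3.33% higher in the same test (7.92% in all), a share that also changed when 1 library was left out. The median member changed by -0.36 and the median gene by 0.09. The count was 2 without week 2 UVB 1, week 25 control 1 or week 25 UVB 0, 3 without week 2 UVB 0 or week 25 UVB 1, 4 without week 2 control 1 or week 25 control 0, and 13 (10 lower, 3 higher) without week 2 control 0. Eda2r and Ccng1 were called in all 8 of these fits. Between weeks 2 and 15 no member was called, and 0% of all genes were. At an unadjusted p under 0.05, 2 members (Eda2r at -2.48 ± 0.48 and Ccng1 at -0.94 ± 0.29) and 1190 genes (8.83%) stood there, and DESeq2 called 50 genes, 1 of them a member (Eda2r).

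For Eda2r, Ccng1 and Zmat3, part of this narrowing lay in the controls. The control means at weeks 2 and 25 were 15.9 and 14.3 CPM for Zfp365 and 126 and 171 CPM for Rb1, neither called. The age of the mice cannot be told apart from the week, and week 2 control 1 was the shallowest library. From week 2 to week 25, control epidermis gained Eda2r (1.84 ± 0.38), Ccng1 (0.81 ± 0.21), Zmat3 (0.67 ± 0.16), Pmaip1, Phlda3 (0.72 ± 0.19) and Ccnd2 (2.14 ± 0.41), and lost Gadd45a (-1.46 ± 0.36). That is 6 up and 1 down of 30 members, against 8.47% and 5.24% of all genes. In UVB epidermis over the same weeks Eda2r (-2.66 ± 0.31), Zfp365 (-1.67 ± 0.20) and Ccng1 (-1.16 ± 0.20) fell, and Ccnd2 (1.96 ± 0.40) and Trp73 (1.59 ± 0.37) rose, where 0.482% of all genes were called down and 4.04% up (4.52% in all). The control count was 1 without week 25 control 0 or 1, 2 without week 2 control 1 and 14 without week 2 control 0. The share of all genes called changed in these fits too. The UVB calls were lost in most of the fits without 1 library, in which few or no genes of any kind were called. Over 10 alternatives the UVB change ranged from -3.00 to -2.38 for Eda2r, -1.77 to -1.58 for Zfp365 and -1.40 to -0.89 for Ccng1. It ranged from 1.57 to 2.51 for Ccnd2 and 1.29 to 1.97 for Trp73. Eda2r and Ccng1 thus differed between weeks in both arms, upward in controls and downward under UVB.

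Markers of other cells moved with the same comparisons, and their part in the results was not tested. Of 14 marker lists, 12 had sums that did not overlap between UVB and control epidermis at week 2, 9 at week 15 and 10 at week 25. The share of all genes without overlap was not counted, and groups of 2 libraries can fail to overlap without a real difference. Of all genes, 8.09% were called up and 9.74% down at week 2, and 10.6% and 10.9% at week 25. Hair shaft markers (6 genes) summed to 524 to 770 CPM in week 2 controls and 7.64 to 39.1 under UVB, with 5 of 6 called down and 2 at 0 in a UVB library. At week 25 they summed to 129 to 322 against 15.7 to 54.3 CPM, with 4 of 6 called down. Fibroblast markers (6 genes) summed to 36.1 to 45.3 CPM in week 2 controls, 6.59 to 10.2 in week 2 UVB, 3.70 to 6.24 in week 25 controls and 34.3 to 141 in week 25 UVB epidermis, where all 5 tested were called up. Macrophage markers (5 genes) summed to 30.0 to 33.9 CPM in week 25 controls and 95.4 to 118 under UVB, with 3 of 5 called up. Differentiated keratinocyte markers (5 genes) summed to 3168 to 5572 CPM in week 2 controls and 2513 to 3012 under UVB, with none of 5 called. Adipocyte markers (4 genes) summed to 109.6 to 136 CPM in week 2 controls and 1.56 to 11.5 under UVB, with 1 of 2 tested called down and 2 at 0 in a UVB library. Basal keratinocyte markers (4 genes) summed to 914 to 1082 CPM in week 2 controls and 1293 to 1503 under UVB, with 2 of 4 called up. T cell markers (4 genes) summed to 21.1 to 43.6 against 8.51 to 12.6 CPM at week 2, and melanocyte markers (4 genes) to 13.1 to 18.8 against 4.33 to 5.38 CPM, with 1 of 4 called down in each.

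**Figure D4:**
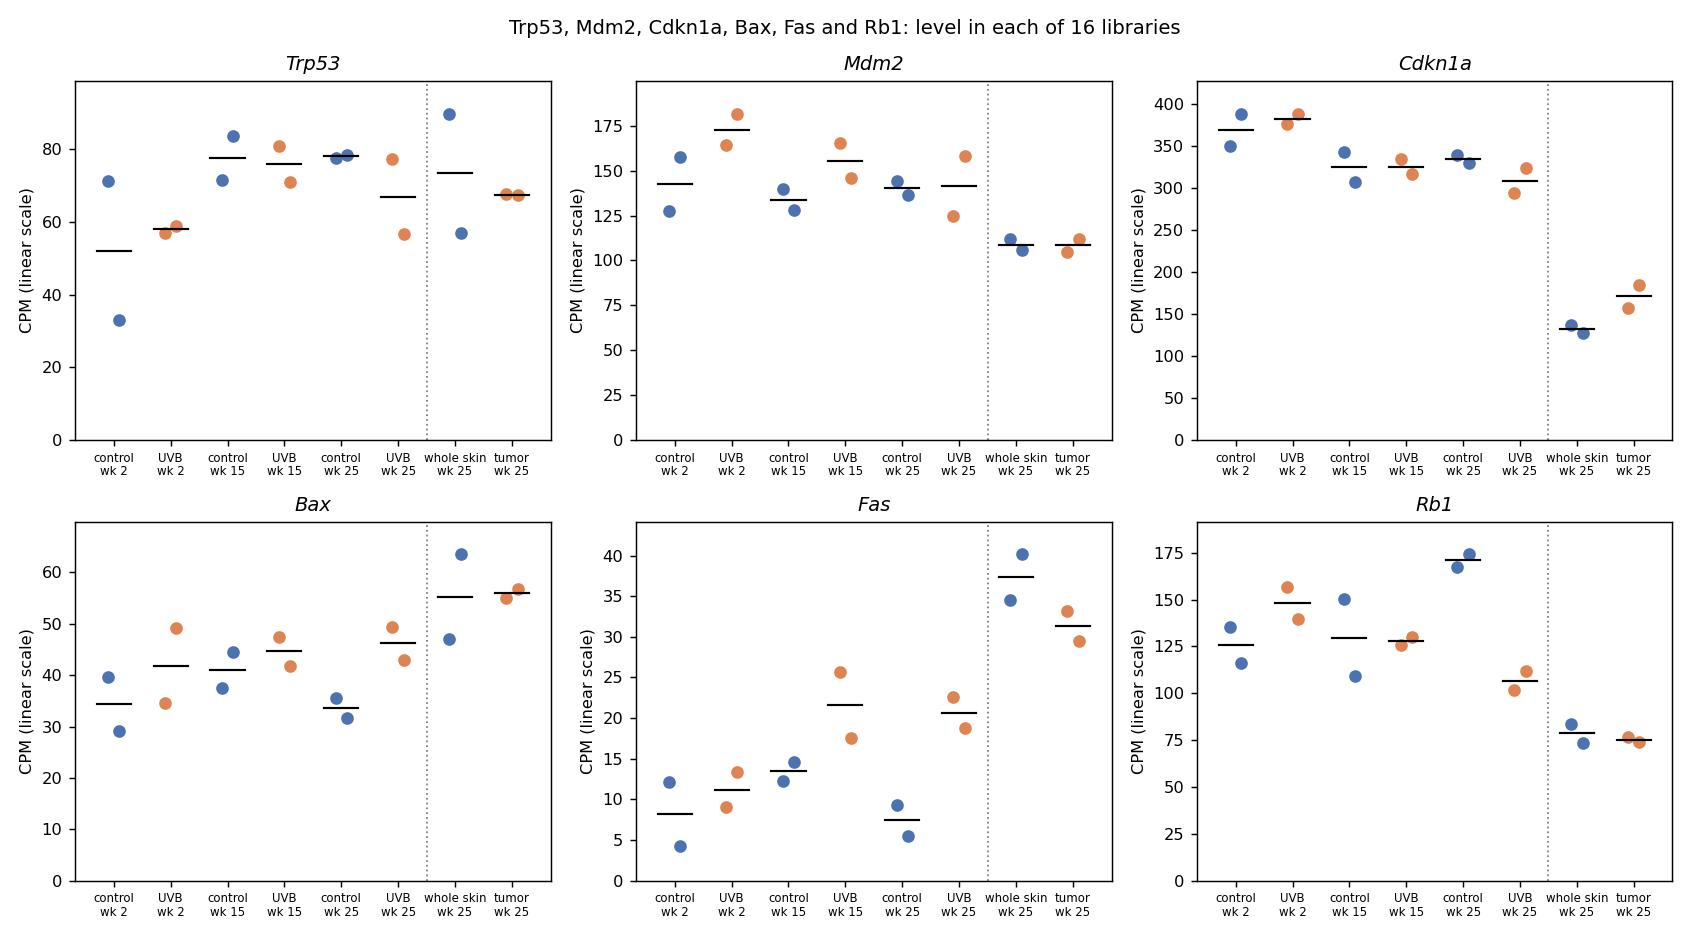
CPM (linear axis) of Trp53, Mdm2, Cdkn1a, Bax, Fas and Rb1, one point per library, blue for control and orange for UVB, with a bar at the mean of the 2 libraries. UVB libraries of Trp53 and Cdkn1a lie among or just under the controls in epidermis, and Cdkn1a and Rb1 are lower in whole skin and tumor than in epidermis.

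Per exon kilobase, which allows a comparison between genes, the members that rose at week 2 ran in week 2 controls from Apaf1 (mean 0.495 CPM per kilobase) and Eda2r (0.718) to Phlda3 (47.3). Those tested and not called ran from Bbc3 (2.09) and Trp73 (2.47) to Plk3 (179), Cdkn1a (182) and Perp (426), so that the ranges overlap. The ceiling on counts per base bears on the upper end of this order.

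In tumors against control whole skin no member was called, and 0% of all genes were (edgeR's quasi-likelihood test on 4 libraries, 2 residual degrees of freedom). At an unadjusted p under 0.05, 3 members and 813 genes (5.55%) stood there, and DESeq2 called 66 genes, 0 of them members. The 3 members were Pmaip1 (0.97 ± 0.30), Plk3 (0.65 ± 0.21) and Sesn1 (-0.54 ± 0.21). Pmaip1 stood at 30.3 and 48.2 CPM in whole skin and 86.2 and 75.5 in tumors. Plk3 stood at 78.5 and 77.3 against 115 and 144 CPM, and Sesn1 at 117 and 103 against 81.1 and 78.1 CPM. The groups did not overlap for any of the 3. They were picked by p in these same libraries, so this adds no support. Against UVB epidermis of week 25, Pmaip1 in tumors differed by 0.02 ± 0.32, which was not called.

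The members that responded in epidermis were not called in this comparison. Trp53 stood at 89.8 and 56.9 CPM in whole skin and 67.7 and 67.3 in tumors, Mdm2 at 112 and 106 against 105 and 112, and Cdkn1a at 137 and 127 against 157 and 185. Ccng1 stood at 243 and 592 CPM in whole skin and 321 and 303 in tumors, Eda2r at 12.1 and 27.8 against 33.0 and 32.6, Zfp365 at 16.9 and 8.74 against 10.5 and 10.2, and Dcxr at 15.7 and 19.8 against 15.7 and 18.3. Groups overlapped for Trp53, Mdm2, Ccng1, Zfp365 and Dcxr but not for Cdkn1a and Eda2r, and such small groups can fail to overlap without a real difference. The spread lay between the whole skin controls: Ccnd2, for example, stood at 296 and 74.8 CPM in them. Without whole skin control 1, 15 members were called (7 up, 8 down, where 36.2% of all genes were called) and Ccng1 turned from -0.49 to 0.28 (adjusted p = 0.0444), while without whole skin control 0, 7 were called (3 up, 4 down, where 19.9% of all genes were) and Ccng1 was at -0.99. Pmaip1 and Plk3 were called up and Sesn1 down in both of these fits, in which the lone whole skin library is assumed to vary as the tumors do. Leaving out a tumor library gave 0 calls each time.

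Tumors differed from UVB epidermis in 12 members, and whole skin differed from control epidermis in 18, which are comparisons with no library in common. Tumors were called up in 3 and down in 9, where 16.8% and 12.7% of all genes were (29.5% in all). Whole skin was called up in 7 and down in 11, where 31.9% and 23.7% of all genes were (55.6% in all). Counted in either direction, the share of members called in whole skin was near that of all genes. In both comparisons Ccng1 was higher (1.67 ± 0.32 and 2.45 ± 0.33), and Cdkn1a (-0.85 ± 0.15 and -1.34 ± 0.15), Plk3 (-1.22 ± 0.21 and -1.83 ± 0.21), Sesn2 (-1.44 ± 0.29 and -2.06 ± 0.29), Zmat3 (-0.93 ± 0.23 and -1.69 ± 0.23), Btg2, Trp53inp1, Rb1 and Sesn1 were lower. Called in the tumor comparison and not in the other were Eda2r (1.25 ± 0.38 against 0.51 ± 0.38 for whole skin), Rrm2b (1.03 ± 0.30 against 0.47 ± 0.29) and Zfp365 (-1.18 ± 0.30 against -0.14 ± 0.29). Fas (0.60 ± 0.38 against 2.33 ± 0.41), Apaf1, Tnfrsf10b, Dcxr, Bax and Trp73 were called up, and Plk2, Ei24 and Aen down, in whole skin and not in tumors.

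The test of the difference between these comparisons, which is also that between the UVB effect in tumor over whole skin and in epidermis at week 25, called 0 of 30 members and 0.0926% of all genes (0.00661% up, 0.0859% down). At an unadjusted p under 0.05 it held 7 members and 2371 genes (15.7%), and DESeq2 called 328 genes, 0 of them members. It called 3 members without whole skin control 0 and 0 on leaving out each other library. The count for tumors against UVB epidermis was 4 without tumor 0, 6 without tumor 1, 5 without UVB 1 and 9 without UVB 0, and Ccng1, Cdkn1a, Plk3 and Sesn2 were called in all 4 of these fits. The composition of the samples differed beside these values, and its part was not tested. Fibroblast markers summed to 552 to 1051 CPM in whole skin and 1075 to 1459 in tumors, against 3.70 to 141 CPM in week 25 epidermis. Skeletal muscle markers (4 genes) summed to 1392 to 2460 and 1323 to 1522 against 15.2 to 26.3 CPM, and endothelial markers (4 genes) to 50.5 to 118 and 130 to 184 against 1.08 to 6.26 CPM. Differentiated keratinocyte markers summed to 1060 to 1389 in whole skin and 1238 to 1330 in tumors, against 2162 to 3241 CPM in week 25 epidermis.

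**Figure D5:**
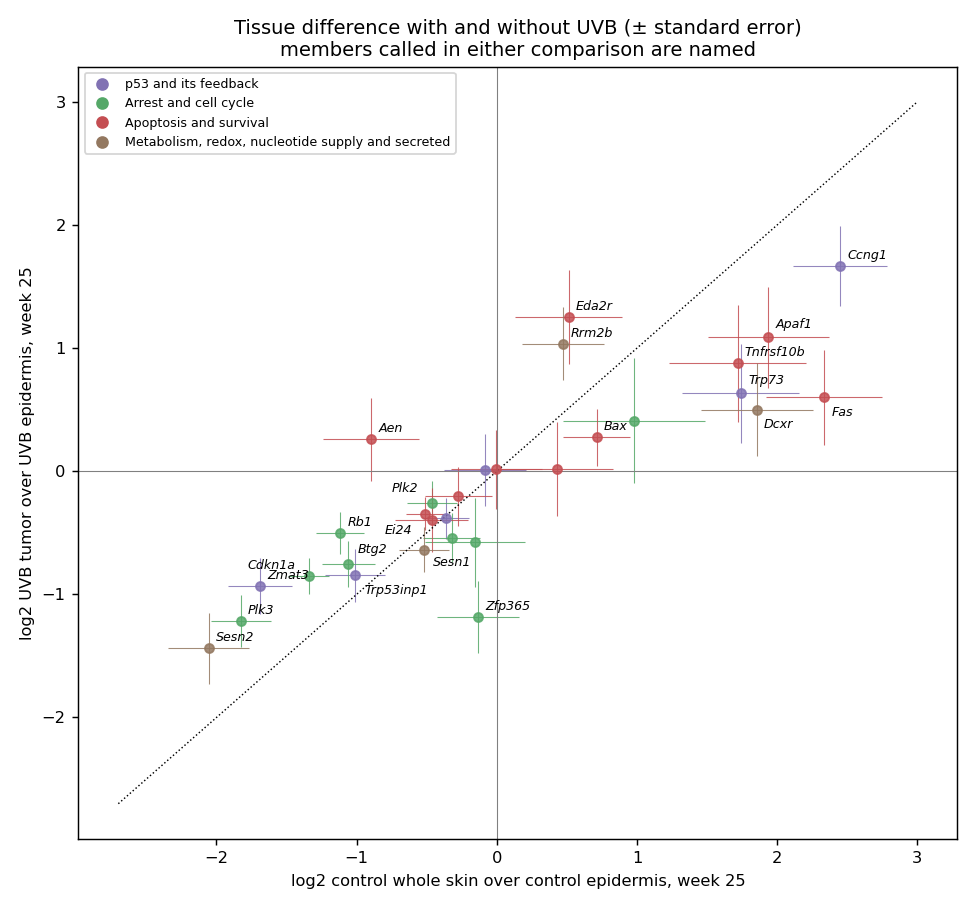
Log2 of control whole skin over control epidermis (horizontal axis) and of UVB tumor over UVB epidermis (vertical axis) at week 25 for the 30 members tested, with standard errors and a dotted line of equal values. Ccng1 is high on both axes and Sesn2, Plk3, Zmat3 and Cdkn1a are low on both, and Fas lies farthest from the line.

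Other genes around p53 were read from lists that hold no member. Of 31 further p53 targets tested, 6 rose and 0 fell at week 2, 1 rose at week 15, and 8 rose and 2 fell at week 25. Of all genes, 8.09%, 1.85% and 10.6% were called up and 9.74%, 1.64% and 10.9% down at these weeks. Those with the smallest p at week 2 were Ckap2 (2.73 ± 0.42) and Gtse1 (2.22 ± 0.50), which act in mitosis, and Siva1 (2.03 ± 0.49), a proapoptotic gene. Gtse1 was also the gene called at week 15 (1.92 ± 0.42). At week 25 they were the phosphatase gene Ptpn14 (-1.34 ± 0.21), Steap3 (2.39 ± 0.49), a metalloreductase gene, and Sat1 (0.63 ± 0.14), of polyamine breakdown.

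Of 23 genes that regulate p53, 3 rose and 3 fell at week 2, 1 rose and 1 fell at week 15, and 1 rose and 6 fell at week 25, beside 17.8%, 3.49% and 21.5% of all genes called in either direction. The p53 cofactor gene Ppp1r13b (ASPP1) fell at each week, by 1.62 ± 0.26, 1.56 ± 0.26 and 1.34 ± 0.25. At week 25 the acetyltransferase genes Crebbp (-1.60 ± 0.17) and Ep300 (-0.94 ± 0.14) and the p53 kinase gene Hipk2 (-2.07 ± 0.26) fell, and each also changed between weeks 2 and 25 (-1.74 ± 0.24, -1.13 ± 0.20 and -2.36 ± 0.36). In these 3 genes control epidermis rose from week 2 to 25 (1.24 ± 0.17, 0.88 ± 0.14 and 1.5 ± 0.26). Cdkn2a, which encodes p16 and the Mdm2 antagonist p19Arf, rose at week 15 (3.37 ± 0.67, adjusted p = 0.0283) and week 25 (3.13 ± 0.61, adjusted p = 0.00782). Its mean was 0.709 ± 0.470 CPM (SD, n = 2) in week 2 UVB epidermis, 21.6 ± 12.0 at week 15 and 40.9 ± 1.27 at week 25, and 39.7 ± 0.375 in tumors. The matching controls had 0.877 ± 0.642, 1.97 ± 2.22 and 4.54 ± 1.42 CPM in epidermis and 11.6 ± 12.4 CPM in whole skin (SD, n = 2).

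Of 16 cell division genes that p53 and p21 can hold down through the DREAM complex, 15 rose at week 2, 3 at week 15 and 8 at week 25, where 8.09%, 1.85% and 10.6% of all genes were called up, and none of the 16 fell. They encode drivers of mitosis and replication, such as Mki67 (2.09 ± 0.29), Top2a (2.68 ± 0.40) and Ccnb1 (3.42 ± 0.56) at week 2. They were called up in the same week 2 libraries as Ccng1, Eda2r and Pmaip1.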

How the data were processed

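RNA was measured by sequencing in 16 libraries. The authors deposited raw read counts for each gene, made with HISAT2, Picard and featureCounts on mm10, per the submitters' processing notes (no versions, DESeq2 also named). Duplicates had been removed before counting, per the file headers. The strand setting and multi-mapping rule were not given in the sources used here. The table has 0 columns of no sample. Groups come from the labels.

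Tests on these counts used edgeR 4.0.16 under R 4.3.3 (filterByExpr with minimum count 10 and minimum total 15, TMM, quasi-likelihood F test, prior count 0.125, Benjamini-Hochberg over all genes tested, threshold 0.05). The standard error is the log2 ratio over the root of F. The fit for epidermis held 12 libraries and 13478 genes, with 6 residual degrees of freedom. The fit of tumor against whole skin held 4 libraries and 14661 genes. Contrasts of tumor or whole skin with epidermis came from all 16 libraries (15126 genes, 8 residual degrees of freedom). CPM use TMM sizes of all 16 libraries. The correction for occupied start positions assumes 2 positions per exon base and was chosen after seeing the data. DESeq2 1.42.0 was an alternative. The scripts were tested on simulated data.

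Members called in at least 1 week are given with the value in every library of the weeks in which they were called. Some are also given at other weeks or in whole skin and tumors. Trp53, Mdm2 and Cdkn1a are given in every library. Other members are given by effects, ranges or counts, and Sesn2 under UVB in epidermis only as not called. From each further list up to 3 called genes with the smallest p were named, and those added in the text (Ppp1r13b at weeks 2 to 25, Cdkn2a at week 25, and the levels of Cdkn2a) were chosen after their values were seen. Members and lists were chosen with earlier results of these data known.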

Additional observations from a re-analysis of the deposited data

Results flagged for a closer look

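The effect of UVB in epidermis differed between week 25 and week 2 in 5 members, by the test of that difference (edgeR's quasi-likelihood test, Benjamini-Hochberg adjusted). The difference, week 25 minus week 2 on the log2 scale, was -4.50 for Eda2r, -1.97 for Ccng1, -1.51 for Zfp365, -1.23 for Zmat3 and -0.91 for Rb1. Groups of 2 libraries are too small for a test of single outlying libraries.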

How the results depend on the processing

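Over the alternatives run, 3720 values of single members were recomputed, of which 3430 kept their side of the threshold (3244 of these with their sign, 186 uncalled ones with the other sign), 192 lost a call, 97 gained one and 1 called value changed sign: Ccng1 in tumor against whole skin, at 0.28 without whole skin control 1 and -0.99 without whole skin control 0, against -0.49 in all libraries. Called under each alternative were Ccng1, Zfp365, Pmaip1 and Eda2r at week 2 (11 of 11). So were Ccng1 and Eda2r in the difference between weeks 2 and 25 (14 of 14). In tumors against UVB epidermis they were Ccng1, Cdkn1a, Plk3 and Sesn2 (10 of 10). All of these tumor members were also called under each alternative in control whole skin against control epidermis (10 of 10), a comparison without tumors. So were Zmat3, Trp53inp1, Trp73, Btg2, Rb1, Fas, Apaf1 and Dcxr in that comparison.

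Counts of members called moved as follows, with the number of all genes called beside them. With all 16 libraries in 1 fit, week 25 had 2 instead of 8 (all genes: 1779 instead of 2898). The difference between weeks 2 and 25 had 2 instead of 5 (all genes: 517 instead of 1067). In that fit controls between weeks 2 and 25 had 3 instead of 7 (all genes: 864 instead of 1848). UVB epidermis between these weeks had 2 instead of 5 (all genes: 499 instead of 609). With only the 4 libraries compared, week 2 had 4 instead of 9 (all genes: 684 instead of 2403). Week 15 then had 4 instead of 7 (all genes: 458 instead of 471) and week 25 had 13 instead of 8 (all genes: 4562 instead of 2898). Tumor against UVB epidermis had 21 instead of 12 (all genes: 6974 instead of 4469). DESeq2 gave 11 for controls between weeks 2 and 25 (all genes: 3030 instead of 1848). For the difference between weeks 2 and 15, DESeq2 and no filter each gave 1 instead of 0 (all genes: 50 and 26 instead of 0). The cause of these shifts was not tested.

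Leaving out 1 library gave 4 to 16 at week 2, 0 to 9 at week 15, 0 to 1 at week 25, 2 to 13 for the difference between weeks 2 and 25 and 0 to 0 between weeks 2 and 15. It gave 1 to 14 for controls and 0 to 2 for UVB epidermis between weeks 2 and 25, 0 to 15 for tumor against whole skin, 4 to 9 for tumor against UVB epidermis, 13 to 20 for whole skin against epidermis and 0 to 3 for the difference of UVB effects. A lone library is then assumed to vary like the other groups. The share of all genes called changed between these fits too, so the counts do not show instability of the members alone.

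Same-numbered libraries deviated together with correlations of -0.10 to 0.23, so the numbers were not taken as pairs. With the replicate block the counts were 9, 7 and 6 at weeks 2, 15 and 25 and 5 for week 25 minus week 2. They were 12 in tumors against UVB epidermis and 0 in tumors against whole skin. All genes called were, in the same order, 2079, 558, 2785, 907, 4442 and 235. The correction for occupied start positions gave 9, 7 and 8 at weeks 2, 15 and 25, as without it (all genes: 2474, 513 and 3010). It gave 6 instead of 7 for controls between weeks 2 and 25 (all genes: 1896 instead of 1848). For whole skin against epidermis it gave 19 instead of 18 (all genes: 8554 instead of 8409). At this depth Gdf15, with 0 to 2 counts in epidermis, did not pass the filter on low counts and was tested only without it.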
